A study of Mus musculus with 6 samples.

Results

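The genes that build the hypoxia-inducible factors (HIF) and sense oxygen for them were examined in resting bone-marrow-derived macrophages (BMDMs) with and without the transcriptional coregulator CITED2. The set was chosen by gene name and not by any measured value. It holds 8 of the 22248 genes listed: the HIF subunits *Hif1a*, *Epas1* and *Arnt*, the prolyl hydroxylases *Egln1*, *Egln2* and *Egln3*, the ubiquitin ligase subunit *Vhl*, and the asparagine hydroxylase *Hif1an*. All 8 had a mean FPKM of at least 1 and were among the 11687 genes tested.

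RNAseq was performed on 6 libraries from unstimulated BMDMs, 3 from *Lyz2 cre* mice (control) and 3 from *Cited2 fl/fl*:*Lyz2 cre* mice (CITED2-deficient). Mice were C57BL/6 and 10 weeks old by their labels, and marrow cells were differentiated in culture with M-CSF. The paper's methods give a younger age for the mice from which BMDMs were made. Both groups carried a Lyz2-driven Cre, which is active in macrophages, monocytes and granulocytes, so *Cited2* was deleted in myeloid cells and the comparison had no Cre-free group. The labels do not say whether the 3 libraries of a group came from separate mice. The p-values thus set group differences against the spread between libraries, which may not be that between mice.

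HIF is a dimer of an oxygen-labile α subunit and the stable β subunit ARNT. In oxygenated cells prolyl hydroxylases mark the α subunit, VHL recognizes the mark and the protein is degraded, while hydroxylation of an asparagine by FIH blocks binding of the coactivators CBP and p300. CITED2 binds the same domain of CBP and p300 as HIF-1α and competes with it, and in macrophages HIF-1α drives glycolytic and inflammatory genes. All these steps act on protein, whereas the values given here are RNA levels.

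*Cited2* fell to between 7.22 and 9.27 FPKM in CITED2-deficient BMDMs, against 71.7 to 79.3 FPKM in controls. Depth was 17289286 to 18952077 recovered fragments in control libraries and 22583995 to 26100410 in CITED2-deficient libraries. The 8 macrophage markers summed to 5624 to 5694 FPKM in controls and 5287 to 5367 FPKM in CITED2-deficient BMDMs, mostly through *Adgre1*, *Cd68* and *Csf1r*. In CITED2-deficient BMDMs 5 of the 8 were lower and 1 was higher. Mean *Lyz2* fell from 31.3 to 9.75 FPKM and mean *Itgam* from 89.7 to 50.9 FPKM, and mean *Fcgr1* rose from 172.5 to 482.4 FPKM. *Adgre1*, *Csf1r* and *Mertk* were lower by 16.9% to 19.8%, and *Cd68* and *Cd14* did not pass. The 8 fibroblast or stromal markers summed to 42.4 to 50.6 FPKM in controls. In CITED2-deficient replicate 1 they summed to 540.4 FPKM, and in replicates 2 and 3 to 170.4 and 171.0 FPKM. The sum of replicate 1 was mostly *Col1a1* (304.5 FPKM) and *Col1a2* (175.1 FPKM). Endothelial markers summed to 6.11 to 6.41 FPKM in controls and 27.6 to 32.8 FPKM in CITED2-deficient BMDMs, mostly through *Kdr* (mean 4.26 and 27.5 FPKM). Of 5 tested markers of neutrophils and granulocyte precursors, *Mpo*, *Elane*, *Prtn3* and *Camp* were lower (for *Mpo*, mean 16.2 and 1.95 FPKM) and *Ltf* was higher (94.3 and 177.4 FPKM). The sum of that list, 174.6 to 191.5 FPKM in controls and 192.1 to 215.6 FPKM in CITED2-deficient BMDMs, was mostly *Ltf* in the latter. Erythroid, T cell and B cell markers summed to at most 1.75 FPKM in any library. In bulk RNA, fewer cells of a type and less RNA per cell cannot be told apart.

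Of the 8 HIF and oxygen-sensing genes, 5 fell and 1 rose in CITED2-deficient BMDMs, by limma at an adjusted p under 0.05. *Hif1a*, *Arnt*, *Egln1*, *Egln2* and *Hif1an* were lower by 10.9% to 21.1%, *Egln3* was 1.74 times as high, and *Epas1* and *Vhl* did not pass. Such calls were common in this comparison, since 51.3% of all tested genes changed, 34.6% downward and 16.7% upward. The groups did not overlap for the same 6 genes, 5 on the lower side and 1 on the higher side, and for 59.9% of all tested genes, 40.9% lower and 19.0% higher. The median log2 fold change was -0.10 over all tested genes and -0.20 over the 8 genes.

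Because 66.3% of tested genes had a log2 fold change below 0, changes relative to the median gene were also computed. With median-ratio scaling between libraries, the median log2 fold change was -0.01 over all tested genes and -0.10 over the 8 genes. Under this scaling 5 of the 8 genes passed by limma, *Hif1a*, *Arnt* and *Hif1an* lower and *Egln3* and *Vhl* higher, while *Egln1* and *Egln2* no longer passed. Of all tested genes 44.5% then passed, 22.0% lower and 22.5% higher. Falls of *Hif1a*, *Arnt* and *Hif1an* and the rise of *Egln3* were thus called under both scalings.

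**Figure D1:**
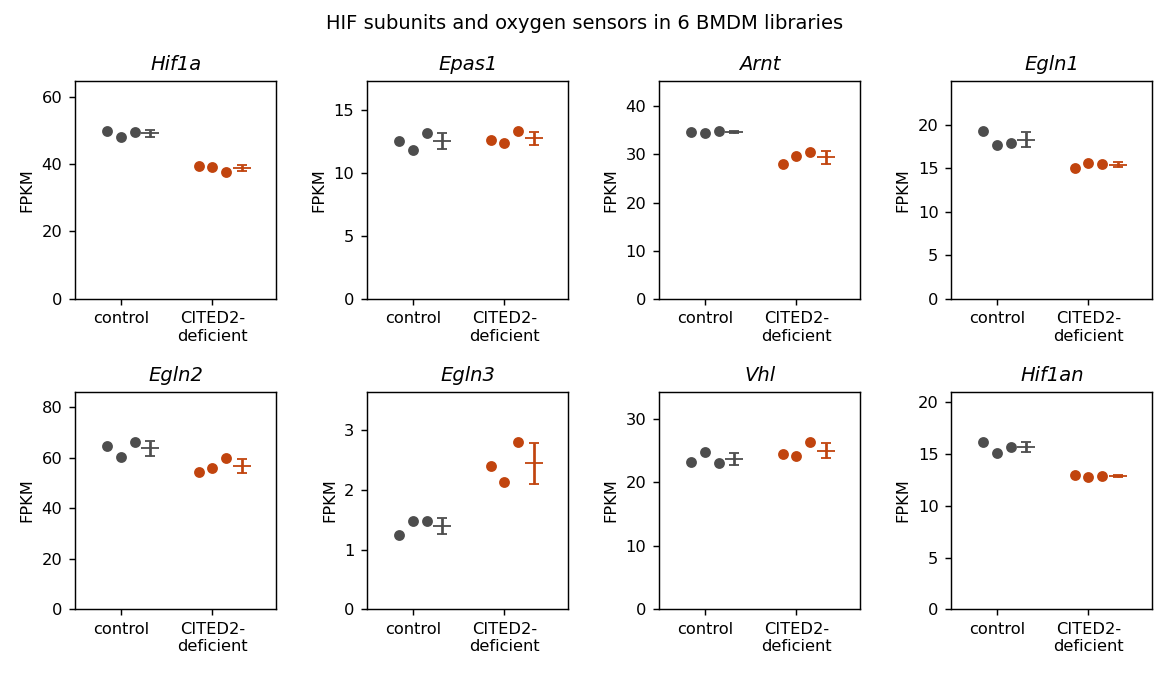
FPKM of the 8 genes in each of the 6 libraries (y axis, FPKM from 0, a scale of its own for each gene), with points for libraries and bars for group means ± SD (n = 3). *Hif1a*, *Arnt*, *Egln1*, *Egln2* and *Hif1an* lie lower in every CITED2-deficient library than in any control library, *Egln3* lies higher, and *Epas1* and *Vhl* overlap.

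*Hif1a* (ENSMUSG00000021109, chr12:73901375-73947530 in mm10, plus strand) encodes HIF-1α, the oxygen-labile α subunit. The promoters of *Hif1a* and of the inducible hydroxylases *Egln1* and *Egln3* are shown because a HIF dimer binds DNA at a core read as ACGTG or GCGTG. HIF binding was not measured, and any link of these letters to the direction of change was not tested. RefSeq promoters (GRCm38.p6) were matched for 7 of the 8 genes. They were searched on both strands over the 250 bases before the RefSeq start, with overlapping matches merged. At least 1 match was present for 5 of these 7 genes. Counted by promoter and not by gene, 38.6% of 32851 promoters of the same length had a match. *Hif1a* had 2 matches (135 and 70 bases upstream), *Arnt* 1, *Egln1* 2 (126 and 68 bases upstream) and *Egln3* 1 (229 bases upstream). *Egln2* had 2 promoters, with 4 matches in 1 and 1 match in the other. *Vhl* and *Hif1an* had 0, which says only that these letters are not in this window. The sequences below run 5′ to 3′ on the strand of the gene, with matches in capitals. They span chr12:73907617-73907866 (plus strand) for *Hif1a*, chr8:124949325-124949504 (minus strand) for *Egln1*, whose match nearer to the start lies beyond the printed bases, and chr12:54203875-54204124 (minus strand) for *Egln3*. The *Hif1a* stretch lies inside the gene span given above, because the RefSeq start (73907867) is downstream of the GENCODE gene start (73901375).
Hif1a: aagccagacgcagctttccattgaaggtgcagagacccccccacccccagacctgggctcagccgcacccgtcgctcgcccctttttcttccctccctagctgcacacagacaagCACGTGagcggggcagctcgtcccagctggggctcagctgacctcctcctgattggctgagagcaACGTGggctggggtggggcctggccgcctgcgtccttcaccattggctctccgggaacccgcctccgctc
Egln1: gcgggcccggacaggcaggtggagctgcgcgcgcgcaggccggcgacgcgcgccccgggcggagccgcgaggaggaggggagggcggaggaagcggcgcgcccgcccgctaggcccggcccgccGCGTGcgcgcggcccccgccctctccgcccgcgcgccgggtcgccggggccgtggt
Egln3: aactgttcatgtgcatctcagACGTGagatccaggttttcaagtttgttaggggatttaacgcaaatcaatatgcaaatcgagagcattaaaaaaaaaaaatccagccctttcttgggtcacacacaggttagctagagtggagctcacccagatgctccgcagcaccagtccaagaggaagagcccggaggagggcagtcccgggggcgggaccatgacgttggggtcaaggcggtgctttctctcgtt

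*Hif1a* was at 49.7, 48.0 and 49.5 FPKM in control replicates 1 to 3 and at 39.4, 39.0 and 37.7 FPKM in CITED2-deficient replicates 1 to 3. Every CITED2-deficient library lay below every control library. The mean fell from 49.1 ± 0.943 to 38.7 ± 0.877 FPKM (SD, n = 3), a log2 fold change of -0.33 (SE 0.04, 95% confidence interval -0.42 to -0.25, adjusted p = 8.56e-05 by limma). After median-ratio scaling the log2 fold change was -0.24 (adjusted p = 0.000596 by limma). Between 1999 and 2413 fragments per library lay behind these values. *Hif1a* is overlapped by an antisense gene, *Gm15283*, which stayed at or below 0.343 FPKM in every library. Whether strand was used in counting is not stated, and the contribution of antisense reads was not tested.

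*Epas1* (ENSMUSG00000024140, chr17:86753700-86833410, plus strand) encodes HIF-2α, the other main α subunit. Its level was 12.5, 11.9 and 13.2 FPKM in controls and 12.6, 12.3 and 13.3 FPKM in CITED2-deficient BMDMs. The groups overlapped throughout. The log2 fold change was 0.03 (SE 0.06, 95% confidence interval -0.11 to 0.16, adjusted p = 0.746 by limma). Its sign turned when control replicate 2 (-0.009) or CITED2-deficient replicate 3 (-0.003) was left out.

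*Arnt* (ENSMUSG00000015522, chr3:95434388-95497240, plus strand) encodes the β subunit that both α subunits require. Control libraries had 34.6, 34.4 and 34.8 FPKM and CITED2-deficient libraries 28.0, 29.7 and 30.4 FPKM. No library of one group reached the range of the other. The mean fell by 15.1%, from 34.6 ± 0.228 to 29.4 ± 1.28 FPKM (SD, n = 3), with a log2 fold change of -0.23 (SE 0.04, adjusted p = 0.00225 by limma). After median-ratio scaling it was -0.14 (adjusted p = 0.0409 by limma). A pseudogene within *Arnt*, *Gm42672*, was listed at 0 to 1.50 FPKM.

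*Egln1* (ENSMUSG00000031987, chr8:124908587-124949324, minus strand) encodes PHD2, the main prolyl hydroxylase acting on HIF-1α in oxygenated cells. It was measured at 19.2, 17.6 and 17.9 FPKM in controls and 15.1, 15.6 and 15.5 FPKM in CITED2-deficient BMDMs. All CITED2-deficient libraries were lower. The mean fell by 15.8%, from 18.3 ± 0.852 to 15.4 ± 0.289 FPKM (SD, n = 3), with a log2 fold change of -0.23 (SE 0.05, adjusted p = 0.00554 by limma). After median-ratio scaling the log2 fold change was -0.14 and did not pass (adjusted p = 0.0546 by limma).

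*Egln2* (ENSMUSG00000058709, chr7:27158658-27166802, minus strand) encodes PHD1. FPKM were 64.7, 60.4 and 66.3 in control libraries and 54.5, 56.0 and 60.0 in CITED2-deficient libraries. The groups nearly touched, since the highest CITED2-deficient library lay just below the lowest control library. The mean fell from 63.8 ± 3.07 to 56.8 ± 2.84 FPKM (SD, n = 3), with a log2 fold change of -0.16 (SE 0.05, 95% confidence interval -0.28 to -0.05, adjusted p = 0.0206 by limma). This was the least stable of the calls. It did not pass after median-ratio scaling (-0.07, adjusted p = 0.288 by limma), or without any 1 of 4 libraries, with adjusted p of 0.0631 without control replicate 1, 0.0768 without control replicate 3, 0.0660 without CITED2-deficient replicate 1 and 0.0553 without CITED2-deficient replicate 2 (limma).

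*Egln3* (ENSMUSG00000035105, chr12:54178981-54203860, minus strand) encodes PHD3, a prolyl hydroxylase that is itself induced by HIF in many cell types. It went against the other hydroxylases. Control libraries had 1.25, 1.48 and 1.49 FPKM and CITED2-deficient libraries 2.41, 2.13 and 2.81 FPKM. Every CITED2-deficient library was above every control library. The mean rose from 1.41 ± 0.133 to 2.45 ± 0.340 FPKM (SD, n = 3), with a log2 fold change of 0.52 on the log2(FPKM + 1) scale (SE 0.12, 95% confidence interval 0.24 to 0.80, adjusted p = 0.00717 by limma). The pseudocount understates the change of so low a gene, and the ratio of the means was 1.74.

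The counts behind *Egln3* were small, with 63, 68 and 75 recovered fragments in control libraries and 163, 128 and 195 in CITED2-deficient libraries. The CITED2-deficient libraries were sequenced more deeply, and FPKM is divided by depth. With a pseudocount of 0.1 the log2 fold change was 0.76, and by limma-voom on the recovered fragments it was 0.80. Stromal markers also rose, and their sum was higher in all CITED2-deficient libraries, most in replicate 1. Their part in the rise of *Egln3* was not tested. Without CITED2-deficient replicate 1 the log2 fold change of *Egln3* was 0.52 (adjusted p = 0.0195 by limma), while the stromal sums of replicates 2 and 3 (170.4 and 171.0 FPKM) still lay above those of the controls.

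*Hif1an* (ENSMUSG00000036450, chr19:44562850-44576274, plus strand) encodes FIH, the asparagine hydroxylase that governs whether HIF-α can bind CBP and p300. The level was 16.1, 15.1 and 15.7 FPKM in controls and 13.0, 12.7 and 12.8 FPKM in CITED2-deficient BMDMs. The CITED2-deficient libraries lay close together and below all controls. The mean fell by 17.9%, from 15.6 ± 0.510 to 12.8 ± 0.112 FPKM (SD, n = 3), with a log2 fold change of -0.27 (SE 0.05, adjusted p = 0.00248 by limma). After median-ratio scaling it was -0.18 (adjusted p = 0.0197 by limma).

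*Vhl* (ENSMUSG00000033933, chr6:113623959-113631633, plus strand) encodes the subunit that recognizes hydroxylated HIF-α. Values of 23.2, 24.8 and 23.1 FPKM in control libraries and 24.5, 24.2 and 26.4 FPKM in CITED2-deficient libraries overlapped. The log2 fold change was 0.08 (SE 0.05, 95% confidence interval -0.04 to 0.19, adjusted p = 0.260 by limma). It became 0.17 after median-ratio scaling and passed (adjusted p = 0.0337 by limma). This was the only 1 of 16 alternative fits under which *Vhl* passed. *Vhl-ps1*, a pseudogene of *Vhl*, was listed at 0 in all libraries but CITED2-deficient replicate 1 (0.264 FPKM).

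**Figure D2:**
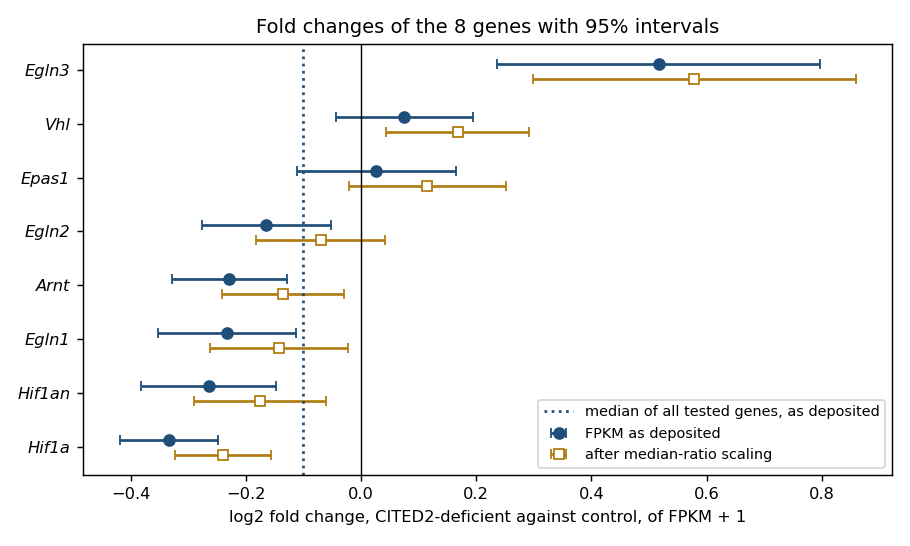
Log2 fold change of the 8 genes, CITED2-deficient against control BMDMs (x axis, log2(FPKM + 1) scale), with points for the limma estimates and bars for 95% confidence intervals, from FPKM as deposited and after median-ratio scaling. *Hif1a* is the farthest below 0 at -0.33, *Egln3* the farthest above at 0.52, and *Epas1* sits at 0.03.

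Within the hydroxylase family, *Egln2*, which encodes PHD1, had the highest level. Per length of the mean transcript, *Egln2* made up 76.4% ± 0.802 of the summed *Egln* FPKM in controls and 76.1% ± 0.448 in CITED2-deficient BMDMs (SD, n = 3). *Egln1* held 21.9% ± 0.866 and 20.6% ± 0.709. The share of *Egln3* was 1.69% ± 0.199 in controls and 3.28% ± 0.354 in CITED2-deficient BMDMs, the smallest of the 3 in both groups. These shares depend on the length used. Per length of the longest transcript, *Egln2* held 64.7% ± 1.02 in controls and 64.2% ± 0.566 in CITED2-deficient BMDMs, *Egln1* 32.8% ± 1.13 and 30.9% ± 0.981, and *Egln3* 2.53% ± 0.300 and 4.90% ± 0.537.

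Per length of the mean transcript, the order of the 8 levels was the same in both groups: *Egln2*, *Hif1a*, *Arnt*, *Vhl*, *Egln1*, *Hif1an*, *Epas1* and *Egln3*. Neighbors in this order did not overlap between libraries of the same group, except *Hif1an* and *Epas1* in CITED2-deficient BMDMs, which did not differ beyond their spread (12.8 ± 0.112 and 12.8 ± 0.498 FPKM, SD, n = 3). The order rests in part on the length used, because annotated transcripts of *Vhl* average 1021 bases and reach 2792. Per length of the longest transcript, *Vhl* had 8.66 ± 0.356 FPKM in controls (SD, n = 3), below *Egln1* (18.3 ± 0.852) and within the spread of *Hif1an* (8.92 ± 0.291). In CITED2-deficient BMDMs *Vhl* (9.15 ± 0.437) was instead above *Hif1an* (7.32 ± 0.0636) on that scale, so the order of these genes differed between the groups. *Arnt* (18.7 ± 0.123 in controls, 15.9 ± 0.690 in CITED2-deficient BMDMs) and *Egln1* (15.4 ± 0.289 in the latter) did not differ beyond their spread in either group. *Egln2* stayed the highest and *Egln3* the lowest on both scales.

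Ratios within each library do not depend on how libraries were scaled, although their size depends on the transcript lengths used. The ratio of the RNAs of both α subunits, *Hif1a* to *Epas1*, was 3.97, 4.05 and 3.77 in controls and 3.13, 3.16 and 2.84 in CITED2-deficient BMDMs. All CITED2-deficient values were lower, with means of 3.93 ± 0.145 and 3.04 ± 0.179 (SD, n = 3, exact two-sided permutation test p = 0.1, 0.16 after Benjamini-Hochberg adjustment over 8 ratios). With 3 libraries against 3, 0.1 is the smallest p that this test can give, so no ratio could pass 0.05.

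The *Epas1* to *Arnt* ratio was likewise apart, at 0.362 ± 0.0163 in controls and 0.435 ± 0.0178 in CITED2-deficient BMDMs (exact permutation p = 0.1, 0.16 adjusted). The ratio of *Hif1a* to *Arnt* overlapped between the groups (1.42 ± 0.0203 and 1.32 ± 0.0853, exact permutation p = 0.2).

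*Vhl* RNA stood at 0.483 ± 0.0294 per unit of *Hif1a* in controls and 0.647 ± 0.0454 in CITED2-deficient BMDMs. The groups did not overlap for this ratio (exact permutation p = 0.1, its minimum, and 0.16 adjusted). *Hif1a* to *Egln1* overlapped (2.69 ± 0.0938 and 2.52 ± 0.0942, exact permutation p = 0.2), as did *Egln1* to *Egln2* (0.287 ± 0.0142 and 0.271 ± 0.0108, exact permutation p = 0.3).

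The largest log2 difference among the 8 ratios was that of *Egln3* against *Egln1*. *Egln3* to *Egln1* was 0.0651, 0.0838 and 0.0829 in controls and 0.160, 0.137 and 0.181 in CITED2-deficient BMDMs, a difference of 1.04 on the log2 scale. *Egln3* to *Egln2* was 0.0221 ± 0.00258 in controls and 0.0430 ± 0.00451 in CITED2-deficient BMDMs (SD, n = 3). Both ratios separated the groups, with the exact permutation p at its minimum of 0.1.

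**Figure D3:**
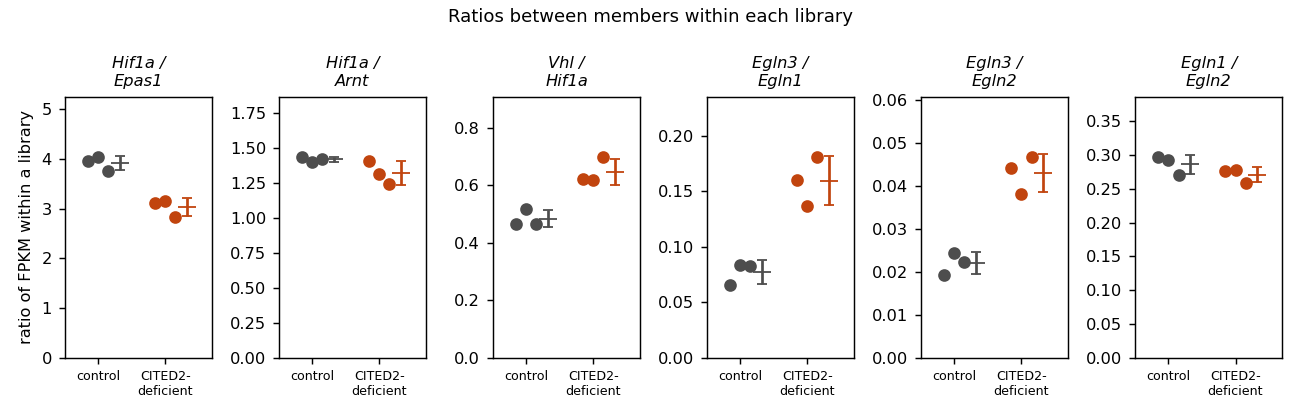
Ratios of FPKM within each library for pairs of HIF and oxygen-sensing genes (y axis), with points for the 6 libraries and bars for group means ± SD (n = 3). *Hif1a* to *Epas1* is lower and *Vhl* to *Hif1a*, *Egln3* to *Egln1* and *Egln3* to *Egln2* are higher in all CITED2-deficient libraries, while *Egln1* to *Egln2* overlaps.

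The genes most like each called gene in their pattern over the 6 libraries were found by the root mean square difference of centered log2(FPKM + 1). *Mib2*, *Raph1* and *Itch* lay nearest to *Hif1a*, and *Sf3b2*, *Mrpl50* and *Selenon* nearest to *Hif1an*. *Cxxc1*, *Lgmn* and *Cyp4f13* lay nearest to *Arnt*, *Ss18*, *Leprot* and *Ttbk2* to *Egln1*, and *Dcun1d2*, *Zfp952* and *Paxip1* to *Egln2*. These modest falls were shared widely, with 2356 tested genes within 0.1 of *Hif1a* and 3199 within 0.1 of *Arnt*. The pattern of *Egln3* had fewer neighbors, 74 genes within 0.1, led by *Ctsk*, *Sap30* and *Gm26637*.

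The other genes of the pathway were taken from 7 lists by role, and their calls by limma are read against the 34.6% lower and 16.7% higher of all tested genes and the median of -0.10. Among PAS-domain relatives of HIF, all 4 tested genes fell, with a median of -0.39: *Ahrr*, the repressor of the aryl hydrocarbon receptor (log2 fold change -0.77), *Ahr* (-0.55), and the clock genes *Clock* and *Arntl* (-0.22 each). *Ahr* and *Ahrr*, but not *Clock* and *Arntl*, also passed after median-ratio scaling. *Hif3a*, *Arnt2* and *Npas2* were below the filter on low values.

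Of 10 other dioxygenases that use oxygen to modify proteins or chromatin, 6 fell and 0 rose, with a median of -0.16. The histone demethylases *Kdm5b* (-0.37), *Kdm3a* (-0.33) and *Kdm4b* (-0.29) fell the most and passed under both scalings. *Kdm5a*, *Kdm6a* and *Kdm4a* fell by 0.13 to 0.19 on the log2 scale and did not pass after median-ratio scaling. *Ado*, a cysteamine dioxygenase, had the highest value of this list (0.11), which did not pass, and passed after that scaling (0.20).

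The prolyl and asparagine hydroxylases consume α-ketoglutarate, and succinate and fumarate inhibit the prolyl hydroxylases. Of 12 tested enzymes that make or use these metabolites, 7 fell and 0 rose, with a median of -0.15. *Fh1*, the fumarase that turns fumarate into malate, fell from 59.6 ± 3.18 to 27.1 ± 0.439 FPKM (SD, n = 3), a log2 fold change of -1.11 (adjusted p = 1.10e-07 by limma). The isocitrate dehydrogenases *Idh2* (58.2 ± 4.57 to 29.4 ± 2.34 FPKM, -0.96) and *Idh1* (-0.54) fell as well. The remaining falls were smaller: *Idh3g* (-0.29), *Sdha* (-0.20), *Idh3b* (-0.18) and *Dlst* (-0.10). After median-ratio scaling 5 were lower and *Sdhc* was higher (0.13).

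Of 7 tested partners of VHL in its ubiquitin ligase and its cycle, *Eloc* (-0.14) and *Nedd8* (-0.12) fell, 0 rose, the median was -0.07, and 0 passed after median-ratio scaling. Of 12 genes for chaperones and VHL-independent turnover of HIF-1α, 4 fell and 1 rose, with a median of -0.07. The deubiquitinase *Usp28* (-0.51), the chaperone-linked ligase *Stub1* (-0.30), *Rack1* (-0.29) and the ligase *Siah1a* (-0.23) fell. *Hsp90aa1* rose (0.08), and *Fbxw7* had a higher estimate (0.19) that did not pass. After median-ratio scaling 5 of these 12 were higher and 3 lower.

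Of the coactivators for which HIF-α and CITED2 compete, *Ep300* rose by 0.20 on the log2 scale (adjusted p = 0.00863 by limma), and *Crebbp* had an estimate of -0.07 that did not pass. *Cited4*, a relative of *Cited2*, was below the filter.

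**Figure D4:**
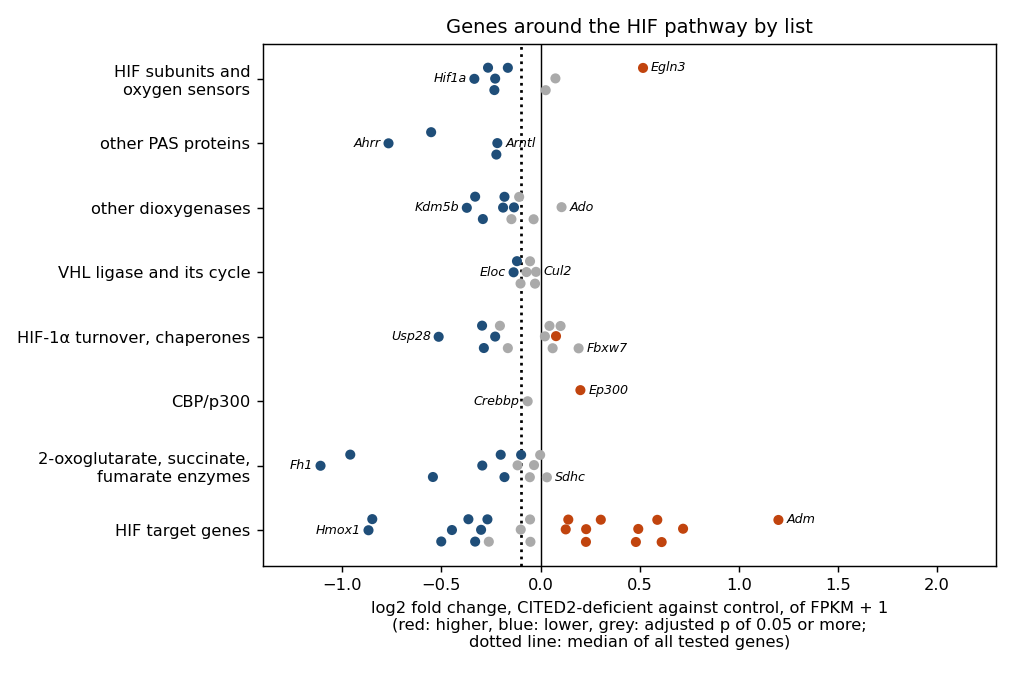
Log2 fold change of each tested gene in the pathway lists, CITED2-deficient against control BMDMs (x axis, log2(FPKM + 1) scale), with 1 point per gene, red for higher, blue for lower and grey for not passed by limma, and a dotted line at the median of all tested genes (-0.10). *Cited2* is not drawn, all PAS relatives lie below 0, and the HIF target genes spread from -0.87 (*Hmox1*) to 1.20 (*Adm*).

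Textbook target genes of HIF did not move in one direction. Of 23 tested, 11 rose, 8 fell and 4 did not pass, with a median of -0.05. Of all tested genes, 16.7% were higher and 34.6% lower, with a median of -0.10. After median-ratio scaling the split was 11 higher and 7 lower, against 22.5% higher and 22.0% lower of all tested genes. Those that rose included the vasodilator peptide gene *Adm* (1.20), the collagen prolyl hydroxylases *P4ha2* (0.72) and *P4ha1* (0.49), and the stress genes *Ddit4* (0.61) and *Bhlhe40* (0.59). The glycolytic genes *Hk2* (0.48), *Pfkfb3* (0.30), *Slc2a1* (0.23), *Pgk1* (0.23) and *Ldha* (0.13) rose, and so did *Ero1l* (0.14), an oxidase of the endoplasmic reticulum.

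Those that fell included *Vegfa*, the vascular growth factor, and *Hmox1*, the heme oxygenase, which also responds to oxidative stress. *Vegfa* was at 110.9, 107.8 and 102.1 FPKM in controls and 63.1, 57.1 and 56.8 FPKM in CITED2-deficient BMDMs, with no overlap (log2 fold change -0.85). *Hmox1* (-0.87), *Ndrg1* (-0.50), the pyruvate dehydrogenase kinase *Pdk1* (-0.45), *Mxi1* (-0.36), *Kdm3a* (-0.33), *Pfkfb4* (-0.30) and *Ankrd37* (-0.27) were the others. *Bnip3* (-0.10), *Car9* (-0.26), *Aldoa* (-0.05) and *Mif* (-0.05) did not pass.

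*Adm* and *P4ha2* rose most among the target genes. *P4ha2* was at 6.01, 6.92 and 6.45 FPKM in controls and 13.6, 10.0 and 10.5 FPKM in CITED2-deficient BMDMs. *Adm* was at 1.74, 2.49 and 1.79 FPKM and at 6.15, 5.77 and 5.68 FPKM. Both were highest in CITED2-deficient replicate 1, and replicates 2 and 3 also lay above every control. The stromal sums were 540.4 FPKM in replicate 1 and 170.4 and 171.0 FPKM in replicates 2 and 3, against at most 50.6 FPKM in controls. Most of the sum of replicate 1 came from *Col1a1* and *Col1a2*, whereas *Dcn* was highest in replicate 3 (6.83, 6.19 and 7.53 FPKM in replicates 1 to 3). All 6 tested stromal markers rose, and their part in these results was not tested.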

How the data were processed

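RNAseq of resting BMDMs was analysed in 3 control and 3 CITED2-deficient libraries, grouped by their titles. The authors removed ribosomal RNA, prepared stranded libraries, mapped reads to mm10 with STAR and deposited FPKM per gene and library from Cuffdiff. The submitters' processing notes also name Cufflinks, and the sources used here give no version of these tools. FPKM are divided by library total and transcript length, so a shift in abundant RNAs moves all other values.

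The test was limma 3.58.1 (R 4.3.3) on log2(FPKM + 1), with trended prior variance. It covered the 11687 genes whose FPKM averaged at least 1, and p-values were adjusted over all of them (Benjamini-Hochberg). Fold changes are on that scale. Permutation tests of ratios used SciPy 1.17.1. The steps were tested on simulated data.

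Fragments were recovered by dividing FPKM by the value of a single fragment at the mean GENCODE vM21 transcript length, and for 96.1% of 22239 matched genes every library came within 0.02 of an integer. *Epas1* was not among these genes. Replicates differed by more than sampling noise (chi-square per gene 2.30 to 6.36), so none was counted as a duplicate.

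Every one of the 8 genes is given. Of each pathway list, genes past the threshold could be named, with at least the largest rise and fall. Some genes of the lists are not reported here and were left out of the list counts. The members and lists were chosen with earlier results of these data known. Promoters came from RefSeq (GRCm38.p6).

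Alternatives were other pseudocounts and filters, median-ratio scaling, quantile normalization, limma-voom on recovered fragments, array weights, no variance trend, a fold change of at least 2, leaving out single libraries, a replicate block, and levels and shares per longest transcript, which were chosen after seeing the data.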

Additional observations from a re-analysis of the deposited data

How the results depend on the processing

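The direction and call of *Hif1a*, *Arnt* and *Hif1an* held in all 16 alternative fits, and those of *Egln3* in all 15 in which it was tested. *Egln2* (-0.165) lost its call without a filter (adjusted p = 0.0505 by limma), without a variance trend (-0.165, adjusted p = 0.0564 by limma) and after median-ratio scaling (-0.07). That scaling also ended the call of *Egln1* (-0.142), added *Vhl* (0.168), and left 2576 lower genes of all tested and 20 lower genes of the pathway lists, against 4044 and 31. The deleted gene *Cited2* is counted in the 20 and in the 31. Requiring a fold change of at least 2 besides, which is not among these fits, left 435 higher and 180 lower genes of all tested. None of the 8 genes reached that size, since the largest log2 fold changes were 0.517 (*Egln3*) and -0.334 (*Hif1a*). Without any single library, the log2 fold change was -0.35 to -0.316 for *Hif1a*, -0.009 to 0.06 for *Epas1* (reversed at -0.009 and -0.003), -0.255 to -0.196 for *Arnt*, -0.257 to -0.197 for *Egln1*, -0.204 to -0.136 for *Egln2*, 0.443 to 0.584 for *Egln3*, 0.038 to 0.107 for *Vhl* and -0.288 to -0.244 for *Hif1an*. Replicate numbers were shared by label only, since deviations of same-numbered libraries correlated at 0.014, 0.008 and 0.04. With a replicate block, 1895 genes were higher and 3813 lower, and no call of the 8 genes changed. The causes of these differences were not tested. Depth limited *Egln3* most, with 63 to 195 fragments per library.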
